A study of Mus musculus with 18 samples.

Results

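Heart muscle genes, matrix genes, mitochondrial genes, clock genes and lysosome genes were mostly higher on day 15 (D15) than on day 8 (D8) of a mouse embryonic stem cell differentiation towards heart muscle, while genes of cholesterol synthesis, cell division and embryonic timing were mostly lower. The comparison spans the stage whose cells the labels call immature cardiomyocytes. It takes the 3 libraries of D15 against the 3 of D8, which are 6 of the 18 libraries of the series, and all genes that passed an expression filter, 13116 of the 23337 in the count table. The 3 libraries of day 10 (D10), which the labels place in the same stage, lie inside the span and are given beside them. Every library was poly(A) RNA from 5x10E5 untreated cells of the TBX5-FTA line, whose strain is given as A2Lox.cre, an embryonic stem cell background built for inserting transgenes. The labels name the cell type of all 3 days as mESC-derived cardiomyocytes, and no purification of muscle cells is given in the sources used here. Whether the 3 libraries of a day stem from different cultures is not stated in the labels. The p-values therefore weigh differences against a spread between libraries that could be technical. The labels name no question for this pair of days; the series as a whole is about Hedgehog signalling in heart and neural progenitors.

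As heart muscle matures in the embryo and after birth, its cells exchange fetal forms of contractile proteins for adult ones, build the membrane system that stores and releases calcium, shift towards burning fatty acids in mitochondria, and leave the cell cycle. A developing heart also holds fibroblasts, which make matrix, an outer layer called epicardium, endothelium that lines vessels and chambers, and smooth muscle. In RNA from a whole culture, more cells of a type and more RNA per cell of that type cannot be told apart.

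Of the 13116 genes, 8446 (64.4%) were called at an adjusted p under 0.05 by edgeR's quasi-likelihood test with Benjamini-Hochberg adjustment over all genes, which holds for every adjusted p given here. Higher at D15 were 4310 genes (32.9%) and lower 4136 (31.5%), so a count of members in a gene list is read against these shares. A change of at least 2-fold was seen in 2216 of the higher (16.9% of genes tested) and 1004 of the lower genes (7.65%). The median log2 fold change over all genes was -0.01, with quartiles of -0.41 and 0.59. The libraries of D8 and D15 did not overlap in CPM (the count as a share of the library's total, scaled between libraries) for 8747 genes (66.7%). Total counts per library were 5583288 to 6769054 at D8, 5257601 to 6506504 at D10 and 6121454 to 6831683 at D15. The root mean square distance in log2 CPM was 0.345 to 0.445 between libraries of a day and 1.3 to 1.42 between those of D8 and D15. Log2 fold changes are D15 minus D8. The value after ± is an SE worked back from the test, the absolute log2 difference over the square root of its F statistic. Where a day has few counts, as for Lin28a at D15, this SE can be smaller than counting error alone. Per-library values are in CPM in the order MR28, MR29 and MR30 for D8, MR31, MR32 and MR33 for D10 and MR34, MR35 and MR36 for D15, the running numbers of the table's columns. Coordinates are GENCODE M21 on GRCm38, the assembly also called mm10.

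Libraries of a day differed in how much sarcomere RNA they held. Summed over 32 sarcomere genes, the level was 5823, 4941 and 3351 CPM at D8, 9594, 7452 and 4975 at D10 and 15551, 11977 and 9293 at D15. The first library listed was the highest and the last the lowest on each day. Summed over 30 fibroblast and matrix genes, the level was 30184, 30039 and 40872 CPM at D8, 39208, 40909 and 49368 at D10 and 65791, 71789 and 77316 at D15, and here the last library listed was the highest on each day. The epicardium list (17 genes tested) summed to 3293, 3465 and 3784 CPM at D8, 3783, 3933 and 4399 at D10 and 5493, 5722 and 5878 at D15. The endothelium list (21 genes tested) summed to 425, 398 and 539 CPM at D8, 469, 399 and 436 at D10 and 839, 783 and 663 at D15. All 4 sums were higher in every D15 library than in every D8 library. Sarcomere genes were thus present on each day as the label says, and so were markers of fibroblasts and epicardium. Most of the endothelium sum at D8 was Tek alone, a gene that fell. That sum therefore says little of other endothelium markers at D8. The part of these markers in the differences between days below was not tested.

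**Figure D1:**
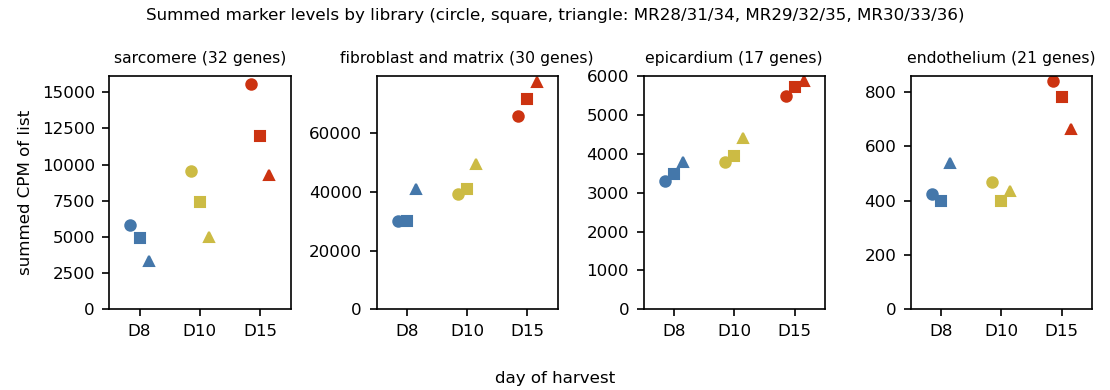
Summed CPM (vertical axes, linear from 0) of the tested genes of 4 marker lists in each library at D8, D10 and D15 (horizontal axes); symbols tell the 3 libraries of a day apart. Sarcomere sums go from 3351 to 5823 at D8 up to 9293 to 15551 at D15, and within each day the order of the libraries is the reverse for fibroblast and matrix genes, with 2 D8 libraries nearly level.

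Gene lists moved in different directions. In the respiratory chain list 34 of 34 tested members rose, and in the cholesterol synthesis list 23 of 24 fell, against 32.9% and 31.5% of all genes. Lists of muscle, matrix, endothelium, fatty acid, clock and lysosome genes had most members risen. Lists of replication, mitosis and timing genes had most members fallen. Markers of cardiac transcription, splicing and Wnt or BMP signalling went both ways. In 9 lists 1 or 2 members had no count on one of D8 and D15 and more than 3 on the other, and the list's median was equal with those members set at their bounds.

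**Figure D2:**
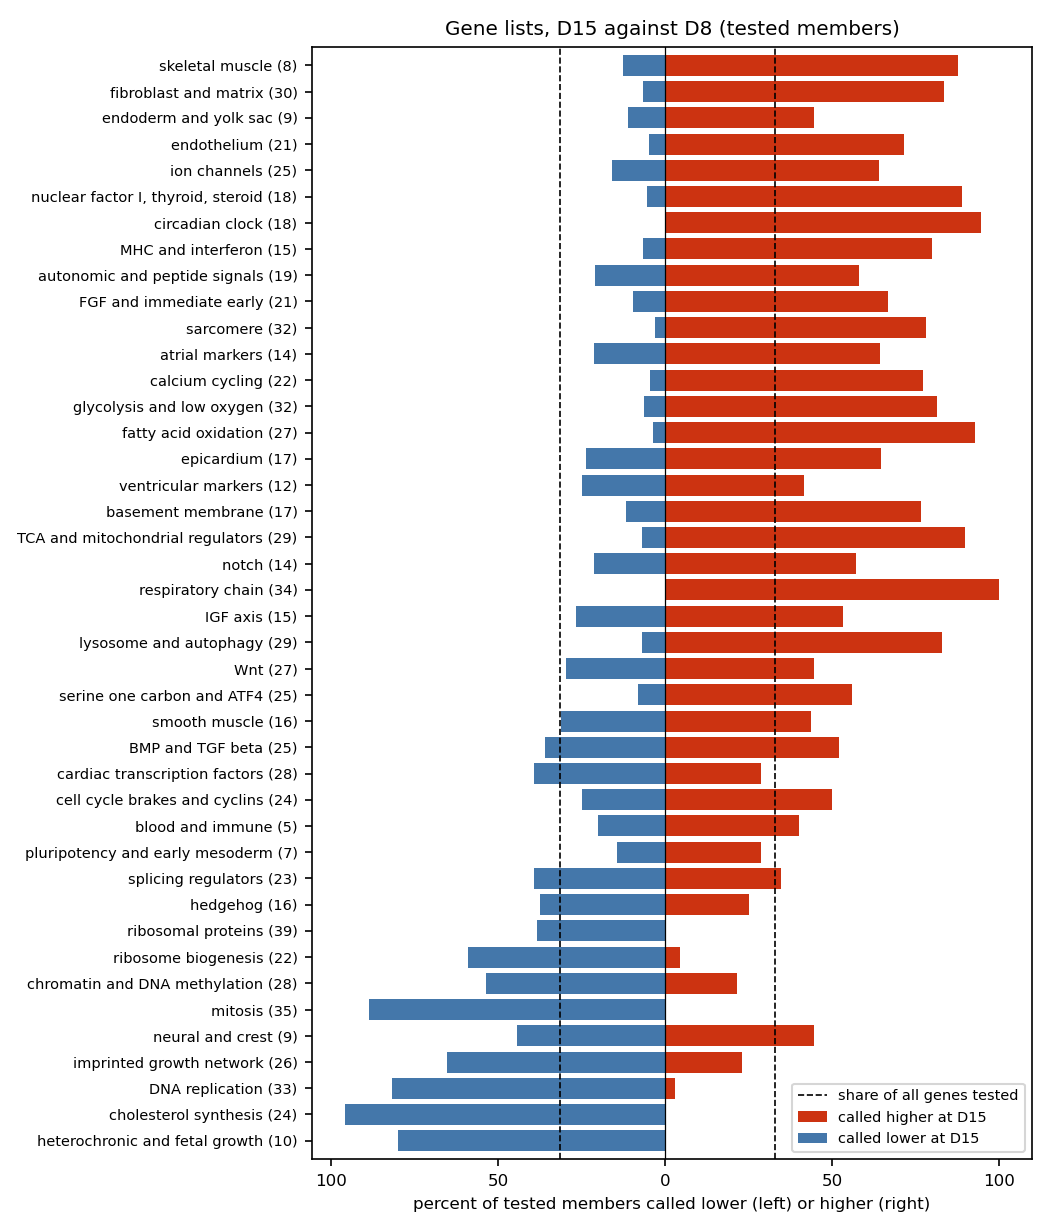
Percent of the tested members of each gene list (number in brackets) that were called higher (right, red) or lower (left, blue) at D15, with lists in order of their median log2 fold change. Dashed lines mark the shares over all 13116 genes, 32.9% higher and 31.5% lower; respiratory chain and cholesterol synthesis genes lie farthest from them on either side.

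Sarcomere genes mostly rose. Of 32 tested, 25 rose, 1 fell and 6 passed no test, with a median log2 fold change of 1.66 against -0.01 over all genes. Myh6, the alpha myosin heavy chain of fast-contracting heart muscle (chromosome 14, 54941921 to 54966927), had 645, 507 and 185 CPM at D8, 1418, 939 and 455 at D10 and 2805, 2065 and 1599 at D15. Every D15 library was above every D8 library, the D10 libraries overlapped those of D8, and on each day the first library was the highest. Myh6 rose by 2.27 ± 0.57 (adjusted p = 0.0037). Tnni3, the adult cardiac form of the inhibitory troponin (chromosome 7, 4518305 to 4524229), had 44, 25.2 and 8.08 CPM at D8, 131, 81.7 and 38.5 at D10 and 372, 261 and 217 at D15 and rose by 3.42 ± 0.49 (adjusted p = 4.37e-05). Among light chain genes, ventricular Myl2 rose by 2.05 ± 0.45 and atrial Myl7 by 2.43 ± 0.51. Trim63, a ubiquitin ligase that turns over sarcomere proteins, rose by 3.27 ± 0.28 and Cryab, a small heat shock protein that protects desmin and titin, by 1.64 ± 0.08. Myom2, of the M band that holds thick filaments together, had 0.726, 0.996 and 0.898 CPM at D8, 1.23, 1.21 and 1.16 at D10 and 51.2, 31.5 and 28.6 at D15. The D10 libraries lay just above those of D8 and far below those of D15. Myoz2, a protein of the Z disc, had 1 count at D8 and 1769 at D15 (D15 to D8 ratio 1862, 95% interval 334 to 73585); this interval, like the others of counts here, covers counting error only. Sarcomere sums and fibroblast sums moved in the same direction between the days.

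Genes of 3 isoforms known from fetal or skeletal muscle were not called higher, while others of this kind were. Myl4, a light chain of the fetal heart, rose by 1.12 ± 0.40 (adjusted p = 0.0274). Myh8, a perinatal myosin, had 0 counts at D8 and 1703 at D15. Myh7, the beta myosin heavy chain, which predominates in the fetal mouse ventricle, had 88.7, 71.5 and 38.4 CPM at D8, 149.5, 105 and 43.7 at D10 and 169, 113 and 92.3 at D15, and the difference did not pass the test (0.90 ± 0.44, adjusted p = 0.089). It passed under limma-voom and without the D10 library MR33. Tnni1, the slow skeletal troponin of the fetal heart, had 499.9, 422 and 337 CPM at D8, 513, 454 and 410.2 at D10 and 358, 289 and 230.1 at D15 (-0.52 ± 0.24, adjusted p = 0.0789); its D8 and D15 ranges overlapped, and it passed downward under 4 of the other settings. Acta1, skeletal alpha actin, had 10.7, 12.1 and 9.7 CPM at D8 and 2.12, 4.96 and 4.0 at D15 and fell by 1.55 ± 0.29 (adjusted p = 9.06e-05), against the direction of its list. Actc1, the cardiac alpha actin (857, 594 and 289 CPM at D8 and 2248, 1701 and 1115 at D15), rose by 1.54 ± 0.50 (adjusted p = 0.0156). That call was lost with a fold threshold of 1.5, when D8 and D15 were fitted alone, and without the D8 library MR30 or the D15 library MR34. For the uncalled Myh7 and Tnni1, the first library listed was the highest and the last the lowest on each day. That order is part of the spread that their tests used.

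Ratios of paired isoforms compare genes inside a library, so a scaling factor common to both genes drops out. They are ratios of counts, not corrected for transcript length. The log2 ratio of Tnni3 to Tnni1 was -3.51, -4.06 and -5.38 at D8, -1.97, -2.48 and -3.41 at D10 and 0.05, -0.15 and -0.08 at D15. Tnni3 thus went from far fewer counts than Tnni1 at D8 to about equal counts at D15, a change of 4.26. The log2 ratio of Myh6 to Myh7 was 2.86, 2.83 and 2.26 at D8, 3.25, 3.16 and 3.38 at D10 and 4.05, 4.19 and 4.11 at D15, a change of 1.47. For Actc1 over Acta1 the ratio changed by 3.25 and for Myl7 over Myl4, the light chain of fetal atria and ventricles, by 1.4. The muscle forms of 2 cytochrome oxidase subunits gained on their general forms, Cox6a2 on Cox6a1 by 2.87 and Cox7a1 on Cox7a2 by 2.3. Slc2a4, the insulin-dependent glucose transporter, gained 1.75 on Slc2a1, and Hk1 gained 1.1 on Hk2, which encode hexokinases. In these 8 pairs the D15 ratios lay above the D8 ratios without overlap. The exact permutation test of 3 against 3 libraries, two-sided, gave p = 0.1 for each, the smallest it allows, and 0.1 after Benjamini-Hochberg adjustment over 8 pairs. Cox8b over Cox8a and Ckm over Ckb could not be tested because 2 D8 libraries had no count of the muscle form. The pairs, and which gene of a pair was divided by the other, were picked after the values had been seen. That all 8 ratios rose therefore carries no weight. Most of these ratios also differed between libraries of a day. At D8 the library with the highest sarcomere sum had the highest ratio in 6 of the 8 pairs.

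Genes of calcium storage and release mostly rose. Of 22 tested, 17 rose, 1 fell and 4 passed no test (median 1.43). Atp2a2, the pump that refills the sarcoplasmic reticulum, had 854, 743 and 518 CPM at D8, 1555, 1247 and 832 at D10 and 3686, 2825 and 2081 at D15 and rose by 2.02 ± 0.25 (adjusted p = 9.99e-06). Ryr2, the release channel, rose by 1.52 ± 0.41 (adjusted p = 0.00525). Casq2, which binds calcium inside the store, had 0.145, 0.332 and 0.718 CPM at D8, 11.8, 10.5 and 5.61 at D10 and 251, 187 and 139.7 at D15, among the largest rises of all genes (8.99 ± 0.44). Pln, the inhibitor of the pump, had 15.5, 12.1 and 4.49 CPM at D8, 92.7, 73.2 and 29.98 at D10 and 173, 148 and 100.01 at D15; it shares sequence with other loci (43.8% of its 50-base stretches are unique), which makes its level uncertain. Sln, an inhibitor of the pump found in atrial muscle, had 0 counts at D8 and 595 at D15, so it was higher by a factor of at least 209. S100a1, which strengthens calcium cycling, rose by 2.0 ± 0.14, and Cav3, which shapes membrane pits of muscle, by 5.08 ± 0.52. Bin1, which bends membranes into T-tubules, fell by 0.62 ± 0.10 (adjusted p = 5.75e-06).

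Ion channel genes went both ways, most of them up. Of 25 tested, 16 rose, 4 fell and 5 passed no test (median 1.91). Cacna1g, a T-type calcium channel of pacemaker cells, had 1.89, 0.332 and 1.44 CPM at D8, 23.3, 17.6 and 12.2 at D10 and 92.5, 111 and 101 at D15 and rose by 6.36 ± 0.25 (adjusted p = 2.34e-18). The 3 days did not overlap. Kcnj2, which holds the resting potential, had 6.97, 7.14 and 12.2 CPM at D8 and 28.9, 21.6 and 11.8 at D15 and rose by 1.25 ± 0.28 although 1 D15 library lay within the D8 range. Kcnd2, of the transient outward current, had 1 count at D8 and 124 at D15 (D15 to D8 ratio 131, 95% interval 23 to 5196), whereas its relative Kcnd3 fell by 1.95 ± 0.18 (adjusted p = 1.05e-10). Kcnk3, a two-pore leak channel, had 39.6, 33.2 and 46.5 CPM at D8, 37.9, 25 and 36.7 at D10 and 10.6, 9.57 and 8.16 at D15 and fell by 2.08 ± 0.18 (adjusted p = 4.27e-11). Kcna5, of the atrial ultrarapid current, fell by 0.84 ± 0.16. Hcn4, the pacemaker channel, had 179, 165 and 142 CPM at D8, 173, 167 and 117 at D10 and 125, 125 and 118 at D15 and fell by 0.41 ± 0.14 (adjusted p = 0.0209). That call was lost with a fold threshold of 1.5 and without the D8 library MR28, the D8 library MR29 or the D15 library MR36. Hcn4 is also an older symbol of another gene.

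**Figure D3:**
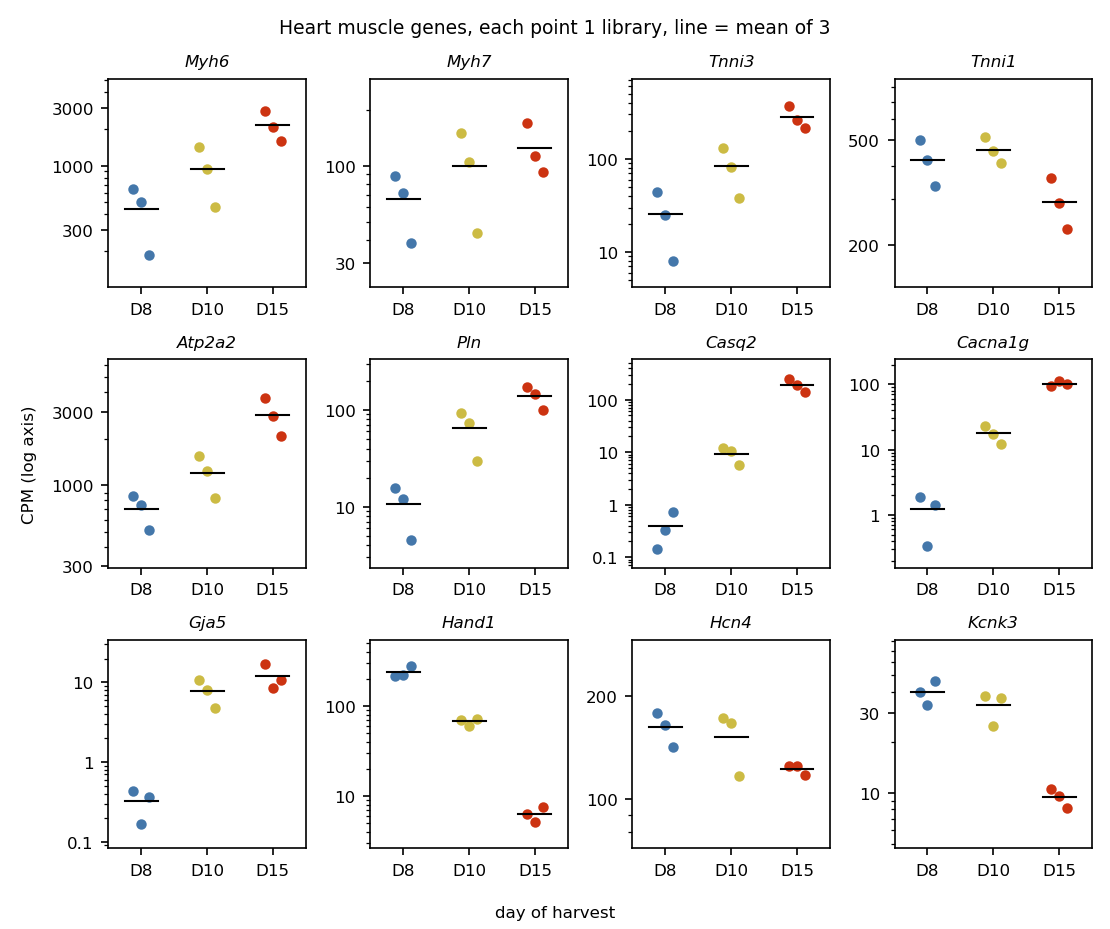
CPM (log axes, each panel on its own scale) of 12 heart muscle genes at D8, D10 and D15; points are libraries in the order of their running numbers and lines are means of 3. Tnni3 goes from between 8.08 and 44.0 CPM at D8 to between 217 and 372 at D15, while Tnni1, Hand1, Hcn4 and Kcnk3 have lower means at D15 than at D8.

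Receptors that tune heart rate and vessel tone changed as well. Of 19 tested genes of autonomic and peptide signalling, 11 rose, 4 fell and 4 passed no test (median 1.71). Chrm2, the muscarinic receptor through which the vagus nerve slows the heart, had 0.29, 0 and 0.898 CPM at D8, 1.38, 2.94 and 1.55 at D10 and 26.8, 24.5 and 16.8 at D15 and rose by 5.9 ± 0.50 (adjusted p = 3.36e-11). Npr3, the clearance receptor of natriuretic peptides, had 6.25, 6.14 and 5.93 CPM at D8, 82.3, 67.5 and 67.9 at D10 and 130.1, 172 and 183 at D15 and rose by 4.73 ± 0.18; its D10 level was above the log2 midpoint of the span by 1.21 ± 0.13 (adjusted p = 2.55e-07). Npr1, the signalling receptor of the same peptides, had 21.9, 23.2 and 30.9 CPM at D8, 18.7, 18.1 and 19.1 at D10 and 75, 88.1 and 84.5 at D15, lower at D10 than at D8 and highest at D15. Agtr1a, an angiotensin receptor, rose by 2.72 ± 0.22, and Ace, which makes angiotensin II, had 0 counts at D8 and 78 at D15, so it was higher by a factor of at least 27.4. Ednrb, an endothelin receptor, fell by 1.03 ± 0.14. BNP, a peptide of strained muscle, is encoded by Nppb, which had 2.32, 1.99 and 4.13 CPM at D8 and 0.53, 0 and 0.32 at D15 and fell by 3.29 ± 0.65. Nppa, of the atrial peptide ANP, differed by -0.69 ± 0.36 without passing (adjusted p = 0.0899), and 46.6% of its 50-base stretches are unique.

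Heart transcription factor genes were divided. Of 28 tested, 8 rose, 11 fell and 9 passed no test (median 0.28). These shares are not far from the 32.9% higher and 31.5% lower over all genes. With a fold threshold of 1.5, which 18.2% of all genes passed as higher and 9.67% as lower, 5 were higher and 7 lower. Hand1, of the left ventricle and of extraembryonic mesoderm (chromosome 11, 57828705 to 57832818), had 215, 223 and 277 CPM at D8, 70.9, 59.9 and 71.6 at D10 and 6.35, 5.14 and 7.52 at D15. The 3 days did not overlap, and Hand1 fell by 5.22 ± 0.24 (adjusted p = 1.32e-10). Its relative Hand2 fell by 0.91 ± 0.10, Gata4 by 0.97 ± 0.15 and Isl1, a marker of second heart field progenitors, by 1.92 ± 0.46. Mef2a, a factor that drives muscle genes, rose by 1.18 ± 0.12, Mef2d by 0.84 ± 0.10 and Tbx20, of chamber muscle, by 1.09 ± 0.13 (adjusted p = 3.86e-06). Tbx3, of the conduction system, had 1.89, 2.32 and 1.62 CPM at D8 and 10.4, 6.91 and 4.8 at D15 and rose by 1.91 ± 0.35. Tbx5, a chamber factor whose symbol is part of the line's name, had 60.6, 44.8 and 31.1 CPM at D8, 80.9, 69.8 and 44.3 at D10 and 86.3, 75 and 57.6 at D15; its D8 and D15 ranges overlapped and the difference did not pass (0.67 ± 0.32, adjusted p = 0.088). Nkx2-5, a core heart factor, had 6.68, 4.48 and 1.8 CPM at D8, 8.75, 6.39 and 1.93 at D10 and 14.8, 10.5 and 8.16 at D15 (1.33 ± 0.60, adjusted p = 0.0644). Both differences passed under limma-voom and without the D8 library MR28, the one with the highest sarcomere sum of its day. For Tbx5 and Nkx2-5 the first library listed was the highest and the last the lowest on each day. That order is part of the spread that their tests used. Irx4, of the ventricle, was below the filter.

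Chamber markers went both ways. Of 14 atrial genes tested, 9 rose, 3 fell and 2 passed no test (median 1.65), and of 12 ventricular genes 5 rose, 3 fell and 4 passed no test (median 0.97). Gja5, the connexin of atria and the conduction system, had 0.436, 0.166 and 0.359 CPM at D8, 10.7, 7.94 and 4.84 at D10 and 16.9, 8.51 and 10.9 at D15. It was already high at D10, 2.0 ± 0.38 above the midpoint (adjusted p = 0.00038). Kcnj3, a channel opened by the vagus nerve in atria, rose by 5.22 ± 0.66 and Stard10 by 1.53 ± 0.14. Nr2f1, an atrial factor, fell by 1.2 ± 0.35 and Nr2f2 by 0.40 ± 0.14. Both calls were lost with a fold threshold of 1.5, and that of Nr2f2 also without the D8 library MR28 or the D15 library MR34. Among ventricular genes, Fhl2 rose by 3.26 ± 0.19 and Mpped2 fell by 3.1 ± 0.17.

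Genes of fatty acid uptake and oxidation rose almost throughout. Of 27 genes tested, 25 rose, 1 fell and 1 passed no test (median 1.11). Cd36, which takes up fatty acids, had 19.2, 20.1 and 14.7 CPM at D8, 39.5, 36.9 and 27.7 at D10 and 189, 163 and 138 at D15 and rose by 3.17 ± 0.17 (adjusted p = 3.01e-12). Cpt1a, the gate for entry into mitochondria (chromosome 19, 3322334 to 3385733), had 36.6, 28.9 and 26 CPM at D8, 127, 138 and 121 at D10 and 243, 253 and 258 at D15. All 3 D10 libraries stood far above D8, and D10 was 0.55 ± 0.09 above the midpoint. Cpt1a rose by 3.03 ± 0.12 (adjusted p = 1.30e-17). Its muscle form Cpt1b, with 21.4% unique stretches, had 1.6, 1.33 and 0.898 CPM at D8 and 3.71, 2.66 and 2.72 at D15 and rose by 1.23 ± 0.50 (adjusted p = 0.0327). That call was lost under limma-voom, with a fold threshold of 1.5 and without MR29, MR30 or MR34. The dehydrogenase genes Acadvl and Acadl rose by 1.89 ± 0.11 and 1.67 ± 0.10, and Ucp2, an inner membrane carrier, by 1.6 ± 0.07. Fabp4, a fatty acid carrier of fat cells, macrophages and capillary endothelium, had 0 counts at D8 and 1953 at D15, so it was higher by a factor of at least 685. Acads, the enzyme for short chains, fell by 0.39 ± 0.10 (adjusted p = 0.00113).

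Genes for respiratory chain subunits rose by small amounts throughout. Of 34 tested, all 34 rose (median 0.65), from 0.33 for Sdhb to 5.54 for Cox8b. Atp5a1, of the ATP synthase, had 1078, 1037 and 1032 CPM at D8, 1366, 1262 and 1207 at D10 and 1803, 1616 and 1558 at D15 and rose by 0.66 ± 0.06 (adjusted p = 1.19e-10). Its 3 D15 libraries were all above D10 and D10 all above D8. Sdhd, Cox6c and Cox4i1 rose by 0.73 ± 0.07, 0.90 ± 0.09 and 0.68 ± 0.07. The muscle forms rose more, Cox6a2 by 3.46 ± 0.49, Cox7a1 by 2.77 ± 0.44 and Cox8b by 5.54 ± 0.84, although the last had 0 counts in 2 D8 libraries. With a fold threshold of 1.5, 7 of the 34 were called higher, against 18.2% of all genes. Of 29 tested genes of the citric acid cycle, energy transfer and mitochondrial regulation, 26 rose, 2 fell and 1 passed no test (median 0.82), and 16 were higher with the threshold of 1.5. Idh2, Pdha1 and Mdh2, enzymes of pyruvate entry and the cycle, rose by 1.24 ± 0.09, 0.86 ± 0.07 and 0.77 ± 0.06. Ckm, the muscle creatine kinase, which buffers ATP, had 1 count at D8 and 2011 at D15 (D15 to D8 ratio 2117, 95% interval 379 to 83646). Mb, of the oxygen store myoglobin, rose by 3.49 ± 0.51 with 75.1% unique stretches. Ppargc1a, a coactivator that drives mitochondrial genes, rose by 1.05 ± 0.39 (adjusted p = 0.0291). That call was lost with the fold threshold of 1.5, when D8 and D15 were fitted alone, and without MR29, MR30 or MR34. Tfam, which drives expression of the mitochondrial genome, and Nrf1, a factor of nuclear genes for mitochondria, fell by 0.51 ± 0.08 and 0.33 ± 0.10.

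Glycolysis and low-oxygen genes also rose. Of 32 tested, 26 rose, 2 fell and 4 passed no test (median 1.26). Car9, a carbonic anhydrase induced by low oxygen (chromosome 4, 43506966 to 43513729), had 0.436, 0.498 and 0.718 CPM at D8, 3.53, 2.76 and 1.74 at D10 and 90.9, 64.5 and 79.1 at D15 and rose by 7.17 ± 0.31 (adjusted p = 4.58e-18). The rise came mainly after D10, whose level was below the midpoint (a difference of -1.25 ± 0.39, adjusted p = 0.0201). Egln3, an oxygen sensor that the pathway induces, had 11.2, 3.98 and 4.31 CPM at D8, 69.5, 52.3 and 34.4 at D10 and 581, 461 and 304 at D15 and rose by 6.06 ± 0.37; within each day it was highest in the library with the highest sarcomere sum. Gpi1, of the second step of glycolysis, had 378, 280.5 and 264 CPM at D8, 656, 554 and 526 at D10 and 935, 806 and 753 at D15 and rose by 1.43 ± 0.11. Hif1a, the oxygen-regulated factor itself, had 512, 552 and 543 CPM at D8, 439.7, 464 and 466 at D10 and 331, 351 and 364 at D15 and fell by 0.62 ± 0.06 (adjusted p = 1.50e-10). Slc2a1, the main glucose transporter of embryonic cells, fell by 0.51 ± 0.14 (adjusted p = 0.00437), while Slc2a4 rose by 1.26 ± 0.17. The 8 called members off the midpoint at D10 were all risen genes, and 7 were nearer D15, against 31.9% of all risen genes off the midpoint.

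Promoter sequence was examined for the letters ACGTG, the core of the element bound by hypoxia-inducible factors, in the 250 bases before each gene's start, on both strands (RefSeq, GRCm38.p6). They stood in 16 of the 28 members of the glycolysis and low-oxygen list with a promoter in the table (57.1%), in 18.5% of all 27025 promoters and in 25.3% of the 9358 tested genes with one. The E-box CACGTG, bound by clock and MYC factors, contains these letters, so a match does not tell the elements apart. Both the fallen Slc2a1 and Hif1a and the uncalled Hk2 and Ddit4 are among the 16. The windows of 60 bases here are examples picked because they hold the letters; capitals mark ACGTG or its reverse complement CACGT, and each is written on the gene's strand. They touch no GENCODE exon and lie upstream of the RefSeq start. The window of Ankrd37 lies inside the GENCODE span of that gene (chromosome 8, 45996902 to 46005707). The window of Pgk1 is at chrX:106186922-106186981 on the plus strand, of Aldoa at chr7:126799349-126799408, of Bnip3 at chr7:138909583-138909642 and of Ankrd37 at chr8:46000041-46000100, the last 3 on the minus strand. Log2 fold changes were 1.1 ± 0.13 for the glycolytic kinase gene Pgk1, which has retrocopies and an uncertain count, 1.05 ± 0.17 for the aldolase gene Aldoa, 1.53 ± 0.32 for the mitophagy gene Bnip3 and 1.65 ± 0.36 for Ankrd37, a gene that low oxygen induces.
Pgk1: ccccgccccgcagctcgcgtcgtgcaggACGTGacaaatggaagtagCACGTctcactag
Aldoa: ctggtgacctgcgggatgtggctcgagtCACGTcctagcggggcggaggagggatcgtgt
Bnip3: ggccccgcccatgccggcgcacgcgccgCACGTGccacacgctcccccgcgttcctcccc
Ankrd37: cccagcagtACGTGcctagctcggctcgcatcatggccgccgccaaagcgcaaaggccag
A match is a run of letters, and whether a factor binds there was not measured.

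Amino acid stress genes rose in part. Of 25 tested genes of serine and one-carbon metabolism and the ATF4 response, 14 rose, 2 fell and 9 passed no test (median 0.49); with a fold threshold of 1.5, 9 were higher. Trib3, a kinase-like feedback inhibitor induced by ATF4, had 1.6, 1.66 and 1.08 CPM at D8, 1.54, 0.518 and 1.35 at D10 and 24.2, 16 and 11.8 at D15. Atf5, a factor made under the same stress, had 27, 27.1 and 33.6 CPM at D8, 23, 21.9 and 21.1 at D10 and 104, 90.6 and 88.5 at D15. D8 and D10 overlapped for Trib3, D10 was lower than D8 for Atf5, and each D15 library was higher than either. Atf5 rose by 1.7 ± 0.13, Slc38a2, a glutamine and alanine transporter, by 1.25 ± 0.06 and Shmt2, the mitochondrial serine enzyme, by 1.07 ± 0.11. Mthfd1, the cytosolic folate enzyme, fell by 0.63 ± 0.10.

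Nearly all cholesterol synthesis genes fell. Of 24 tested genes, 0 rose, 23 fell and 1 passed no test (median -1.36), and 19 of the fallen genes were at least 2-fold lower. Mvd, of the mevalonate steps (chromosome 8, 122433601 to 122443422), had 105, 99.9 and 118 CPM at D8, 54.5, 62.7 and 64.8 at D10 and 23.8, 22.3 and 25 at D15 and fell by 2.18 ± 0.09 (adjusted p = 1.85e-18). Dhcr7, of the last step, had 188, 169 and 179 CPM at D8, 85.8, 91.3 and 100.2 at D10 and 49.4, 44.7 and 41.4 at D15 and fell by 1.98 ± 0.08. For both, each day was lower than the one before in all libraries. Fdft1, of the squalene step, fell by 1.7 ± 0.07; 73.5% of the stretches of Fdft1 are unique. The list's summed level was 5370, 5636 and 5892 CPM at D8, 3179, 3314 and 3506 at D10 and 2217, 2313 and 2191 at D15, nearly level among the libraries of D15. The letters TCACNCCAC, of the element bound by sterol-regulated factors, stood in 1 of 16 promoters of the list (6.25%), that of Hmgcs1, and in 1.22% of all promoters.

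**Figure D4:**
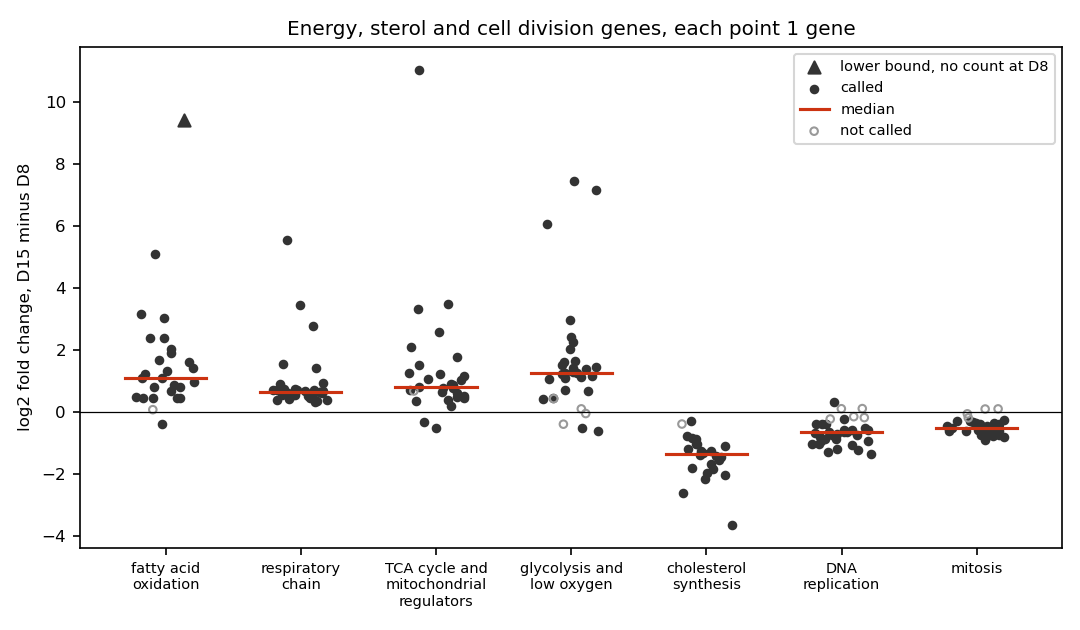
Log2 fold change, D15 minus D8 (vertical axis), of each tested gene of 7 lists; filled points are called genes, open points are not called, red lines are medians, and the triangle is the lower bound of Fabp4, which had no count at D8. All respiratory chain genes lie above 0 and all cholesterol synthesis genes below it, while mitosis genes lie close together around -0.51.

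Genes of DNA replication and mitosis fell by less than 2-fold in most cases. Of 33 replication genes 1 rose, 27 fell and 5 passed no test (median -0.65), and of 35 mitosis genes 0 rose, 31 fell and 4 passed no test (median -0.51). Mcm5, of the replicative helicase, had 168, 175 and 171 CPM at D8, 139, 156 and 173 at D10 and 83.5, 92.5 and 104 at D15 and fell by 0.87 ± 0.08 (adjusted p = 1.28e-10). Its D15 libraries were all below those of D8 and D10, and D10 was 0.30 ± 0.07 above the midpoint. Uhrf1, which carries DNA methylation through replication, fell by 1.28 ± 0.09, Rrm2, which supplies deoxynucleotides, by 1.02 ± 0.08 and Mcm2 by 0.94 ± 0.07. E2f1, a driver of replication genes, was the member that rose (0.31 ± 0.13, adjusted p = 0.038), a call lost under 8 of the other settings. Among mitosis genes, Ube2c, which feeds the ubiquitin ligase of anaphase, had 81.5, 93.4 and 73.4 CPM at D8, 55.9, 58.4 and 53.4 at D10 and 39.2, 42.2 and 50.4 at D15 and fell by 0.91 ± 0.09. Bub1, of the spindle checkpoint, fell by 0.77 ± 0.08 and the kinesin genes Kif4 and Kif2c by 0.74 ± 0.08 and 0.78 ± 0.09. Mki67, a marker of cycling cells, had 459, 542 and 488 CPM at D8, 447, 437 and 496 at D10 and 367, 382 and 422 at D15 and fell by 0.35 ± 0.10 (adjusted p = 0.00393). With a fold threshold of 1.5, 14 of 33 replication and 5 of 35 mitosis genes were called lower, against 9.67% of all genes. Summed mitosis levels were 5080 to 5681 CPM at D8 and 3651 to 4229 CPM at D15, beside fibroblast sums of 30039 to 40872 CPM at D8 and 65791 to 77316 CPM at D15.

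The letters TTTGAA, a core of the cell cycle element read by the DREAM complex, stood in 13 of the 30 mitosis promoters in the table (43.3%), in 18.3% of all promoters and in 12.3% of those of tested genes. The letters TTTCCCGC, of sites bound by E2F factors, stood in 3 of 27 replication promoters (11.1%), those of Mcm7, Cdc6 and Gins3, in 1.03% of all promoters and in 2.03% of those of tested genes. Among the 13 is Prc1, which was not called. Examples of mitosis windows, picked because they hold the letters, follow with TTTGAA or its reverse complement TTCAAA in capitals. The window of Cdk1 is at chr10:69352951-69353010, of Top2a at chr11:99024336-99024395 and of Ect2 at chr3:27153960-27154019, all on the minus strand of GRCm38.p6 and outside GENCODE exons. Cdk1, the kinase that starts mitosis, had a log2 fold change of -0.33 ± 0.06, Top2a, which untangles chromosomes, of -0.35 ± 0.07 and Ect2, which sets the cleavage plane, of -0.27 ± 0.08.
Cdk1: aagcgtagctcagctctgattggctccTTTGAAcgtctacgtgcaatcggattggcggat
Top2a: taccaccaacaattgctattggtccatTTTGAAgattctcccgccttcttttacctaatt
Ect2: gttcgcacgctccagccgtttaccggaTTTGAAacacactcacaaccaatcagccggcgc
These promoters are a few of the list, and the share above is over all of it.

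Brakes of the cell cycle were mixed. Of 24 genes of cell cycle inhibitors, D cyclins and related regulators, 12 rose, 6 fell and 6 passed no test (median 0.22). Gadd45b, a stress-induced growth inhibitor, had 3.78, 3.15 and 3.23 CPM at D8, 14.1, 13.3 and 15.5 at D10 and 66.9, 86 and 80.01 at D15 and rose by 4.51 ± 0.20 (adjusted p = 5.63e-18). Btg2, an antiproliferative gene, rose by 2.3 ± 0.15, Rbl2, a retinoblastoma relative found in resting cells, by 1.3 ± 0.12 and Gas1, a growth arrest gene and Hedgehog co-receptor, by 2.17 ± 0.13. Ccnd2, a D cyclin, rose by 0.57 ± 0.12. Cdk4, the partner of D cyclins, fell by 0.64 ± 0.07 and Meis1, a factor that arrests heart muscle cells, by 0.45 ± 0.11. The inhibitors of cyclin-dependent kinases differed in direction. Cdkn1b, the inhibitor p27, fell by 0.32 ± 0.07, whereas Cdkn2a, Cdkn2b, Cdkn2c and Cdkn2d, of the INK4 family, rose by 1.4 ± 0.31, 2.24 ± 0.28, 2.28 ± 0.25 and 0.71 ± 0.13. Cdkn1a, the inhibitor p21, rose by 0.36 ± 0.14 (adjusted p = 0.0344), a call lost under 6 of 17 other settings, among them without MR28, MR34 or MR35. Cdkn1c, the inhibitor p57, had 199, 202 and 214 CPM at D8 and 165, 199.7 and 238 at D15 and did not pass (-0.03 ± 0.12, adjusted p = 0.846).

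Genes known for embryonic timing fell. Of 10 tested heterochronic and fetal growth genes, 0 rose, 8 fell and 2 passed no test (median -2.02). Lin28a, which blocks maturation of let-7 microRNAs (chromosome 4, 134003330 to 134018841), had 61.9, 77.3 and 70.9 CPM at D8, 7.06, 7.6 and 7.93 at D10 and 0.177, 0.354 and 0.32 at D15 and fell by 7.94 ± 0.20 (adjusted p = 2.91e-23). Libraries of the 3 days did not overlap, and the log2 difference of D10 from the midpoint, 0.75 ± 0.26, did not pass (adjusted p = 0.0609). Hmga2, a chromatin protein whose message is a let-7 target (chromosome 10, 120361275 to 120476469), had 167, 165 and 161 CPM at D8, 165, 146 and 146 at D10 and 40.2, 35.8 and 39.5 at D15. Its D10 libraries overlapped those of D8, 0.94 ± 0.06 above the midpoint (adjusted p = 8.02e-13), and Hmga2 fell by 2.09 ± 0.07. Igf2bp1 and Igf2bp3, RNA-binding proteins of fetal growth, fell by 2.01 ± 0.07 and 1.78 ± 0.06. Trim71, a partner of the same pathway, fell by 6.31 ± 0.39.

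Imprinted genes, expressed from a single parental copy and known for fetal growth control, mostly fell. Of 26 tested, 6 rose, 17 fell and 3 passed no test (median -0.61); with a fold threshold of 1.5, 11 were lower and 2 higher. Peg10, of retrotransposon origin, had 5242, 5901 and 5703 CPM at D8, 2787, 2868 and 3069.7 at D10 and 361, 332 and 359.9 at D15; it fell by 4.0 ± 0.07 (adjusted p = 2.43e-27). Nnat, a small membrane protein, had 649, 613 and 659 CPM at D8, 392, 449 and 481 at D10 and 7.59, 11.9 and 15.2 at D15; it fell by 5.78 ± 0.14 and was 2.35 ± 0.10 above the midpoint at D10. For both, every D10 library was below D8 and every D15 library below D10. Slc38a4, an amino acid transporter, fell by 1.01 ± 0.06. Of the members that rose, H19, a noncoding RNA, had 3275, 3275 and 3312 CPM at D8, 5309, 5583 and 5719 at D10 and 6741, 5839 and 6351 at D15. Igf2, the fetal growth factor beside it, had 18016, 17237 and 18260.2 CPM at D8, 21226, 21829.7 and 21774 at D10 and 24109.6, 27628 and 28664 at D15. Igf2 rose by 0.59 ± 0.05 and H19 by 0.94 ± 0.05; 37.9% of the stretches of Igf2 are unique, and the list's summed level overlapped between the days (44562 to 47016 CPM at D8 and 43764 to 50558 CPM at D15). Dcn, which this list shares with the matrix list, rose by 4.79 ± 0.18.

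Genes of the IGF axis went both ways. Of 15 tested, 8 rose, 4 fell and 3 passed no test (median 0.59). Igfbp7, of vessels and matrix, had 1.74, 0.498 and 0.18 CPM at D8, 29.8, 26.4 and 21.7 at D10 and 135, 119 and 101 at D15 and rose by 7.1 ± 0.29. Igfbp6 had 2 counts at D8 and 1275 at D15 (D15 to D8 ratio 671, 95% interval 185 to 5547). Pappa2, a protease that frees IGF from its binding proteins, had 0.145, 0.996 and 0.18 CPM at D8, 2.92, 2.76 and 1.55 at D10 and 90.02, 78.9 and 81 at D15. Igfbp5 had 3848, 3010.3 and 2428 CPM at D8, 3993, 3604 and 3029 at D10 and 1503, 1219 and 996 at D15 and fell by 1.32 ± 0.19 (adjusted p = 3.61e-05), and Igfbp2 fell by 1.42 ± 0.16. Igf2r, which clears IGF2, fell by 0.81 ± 0.06.

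A list of nuclear factor I genes, hormone receptor genes and some further genes mostly rose. Of 18 tested, 16 rose, 1 fell and 1 passed no test (median 1.89). The further genes are Klf9, Zbtb16, Tsc22d3, Fkbp5 and Per1, which are of neither kind and all rose. Per1 is also counted with the clock genes. Nfib, a factor of late fetal tissue maturation (chromosome 4, 82290173 to 82705750), had 72.2, 61.2 and 72.2 CPM at D8, 223, 242 and 235 at D10 and 493, 485 and 523 at D15; it rose by 2.87 ± 0.08 (adjusted p = 6.35e-23) and was 0.33 ± 0.06 above the midpoint at D10. Nfia rose by 2.02 ± 0.10 and Nfic by 1.76 ± 0.08. Nr3c1, the glucocorticoid receptor, which matures the fetal heart, had 32.7, 35.7 and 40.4 CPM at D8, 91, 87.7 and 97.9 at D10 and 197, 180.2 and 212 at D15 and rose by 2.44 ± 0.10. Nr3c2, the mineralocorticoid receptor, fell by 3.33 ± 0.30 (adjusted p = 7.91e-11). Zbtb16, a gene that glucocorticoids and progestins induce in many cells, had 2.47, 4.98 and 5.21 CPM at D8, 1.84, 1.9 and 2.51 at D10 and 48.5, 55.5 and 35.8 at D15, lowest at D10 and far higher in every D15 library.

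Clock genes rose almost without exception. Of 18 tested, 17 rose, 0 fell and 1 passed no test (median 1.81), and 14 were at least 2-fold higher. Per1, a repressor of the clock loop that glucocorticoids also induce, had 25.6, 21.9 and 21.7 CPM at D8, 35.9, 35.6 and 31.9 at D10 and 128, 131 and 142 at D15 and rose by 2.53 ± 0.10 (adjusted p = 1.16e-18). Hlf, an output factor, had 5.66, 6.31 and 7.18 CPM at D8, 43, 58.7 and 73.1 at D10 and 98.3, 89.3 and 87.7 at D15, with most of its rise before D10. Npas2, which can stand in for CLOCK, had 2.76, 1.99 and 1.26 CPM at D8, 5.22, 3.97 and 6.0 at D10 and 46.6, 39.7 and 38.7 at D15 and rose by 4.35 ± 0.25. Nfil3, a repressor in the clock's second loop, rose by 2.19 ± 0.15. The time of day of the harvests is not given in the sources used here, so a difference in phase cannot be told apart from a difference in level.

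Lysosome genes mostly rose and ribosome biogenesis genes mostly fell. Of 29 lysosome and autophagy genes, 24 rose, 2 fell and 3 passed no test (median 0.51); with a fold threshold of 1.5, 9 were higher. Ctsl, a lysosomal protease, had 413, 371 and 391 CPM at D8, 508, 458 and 503 at D10 and 1467, 1478 and 1381 at D15 and rose by 1.88 ± 0.06 (adjusted p = 2.94e-21), with 73.7% unique stretches. Ctsb, Ctsa and the autophagy gene Gabarapl1 rose by 1.36 ± 0.06, 1.2 ± 0.06 and 1.38 ± 0.07. Of 22 ribosome biogenesis genes, 1 rose, 13 fell and 8 passed no test (median -0.25). Ncl, the nucleolar protein nucleolin, had 1134, 1256 and 1186 CPM at D8 and 805, 829 and 885 at D15; it fell by 0.51 ± 0.06. Npm1 fell by 0.65 ± 0.06 and Utp20, of the small subunit, by 1.03 ± 0.12, whereas Myc, which drives ribosome genes, had 10.7, 8.46 and 8.98 CPM at D8 and 23.1, 22.9 and 21.1 at D15 and rose by 1.24 ± 0.23. Of 39 ribosomal protein genes, 0 rose, 15 fell and 24 passed no test (median -0.24). Many of these genes have processed copies elsewhere in the genome, and how reads of such copies were counted is not given, so this count is uncertain. Rpl4 fell by 0.51 ± 0.06 and Rpl22 by 0.66 ± 0.06. With a fold threshold of 1.5, 1 gene of each of the 2 ribosome lists was called lower.

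Splicing and chromatin regulators changed in part. Of 23 splicing regulators, 8 rose, 9 fell and 6 passed no test (median -0.07), not far from the 32.9% higher and 31.5% lower over all genes. Celf1, which keeps the embryonic splicing pattern in the heart, had 379, 376 and 339.6 CPM at D8, 272, 262 and 263 at D10 and 219, 223 and 220.03 at D15 and fell by 0.73 ± 0.06. Mbnl1, which opposes it, had 42.8, 45 and 41.7 CPM at D8, 58.5, 57.8 and 54.7 at D10 and 106, 95.2 and 96.3 at D15 and rose by 1.2 ± 0.09. The 3 days did not overlap for either gene. Mbnl2 and Celf2 rose by 1.2 ± 0.09 and 1.49 ± 0.08, and Ptbp2, a repressor of late exons, fell by 1.23 ± 0.08. Rbm20, the splicing factor of titin, had 61.1, 60.7 and 40.2 CPM at D8 and 99.5, 68.9 and 52.3 at D15 and did not pass (0.44 ± 0.25, adjusted p = 0.154). Of 28 chromatin genes, 6 rose, 15 fell and 7 passed no test (median -0.28). Ezh2, the Polycomb methyltransferase, had 128, 133 and 128 CPM at D8, 98.4, 102 and 105 at D10 and 51.7, 52.8 and 59 at D15 and fell by 1.24 ± 0.07, and Cbx2, of the other Polycomb complex, by 1.76 ± 0.10. The remodeller ATPase gene Smarca4 fell by 0.87 ± 0.07, while Smarca2, its alternative, rose by 0.75 ± 0.10. Linker histone H1f0, of resting cells, rose by 0.75 ± 0.11.

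Fibroblast and matrix genes had the highest median change among lists with 30 or more tested genes. Of 30 tested, 25 rose, 2 fell and 3 passed no test (median 2.24). Bgn, the proteoglycan biglycan (chromosome X, 73483602 to 73495933), had 12.3, 9.13 and 8.26 CPM at D8, 152, 136 and 128 at D10 and 1091, 1004 and 1050.2 at D15. It rose by 6.71 ± 0.11 (adjusted p = 2.43e-27). Ogn, another small proteoglycan, had 4.65, 3.98 and 5.03 CPM at D8, 38.7, 33 and 43.9 at D10 and 316, 379 and 415 at D15. Col6a2, of microfibrils, had 105, 82.5 and 106 CPM at D8, 368, 358 and 355 at D10 and 1457, 1592 and 1639 at D15. In all 3 genes the days did not overlap. Col1a1, the main fibrillar collagen, started high, with 5678, 5706 and 7596 CPM at D8, 6668, 7154 and 7777 at D10 and 9926, 11799 and 12981 at D15, and rose by 0.87 ± 0.14. Postn, a matrix protein of embryonic cushions, had 1334, 1514 and 2657 CPM at D8, 662, 726 and 1232 at D10 and 338, 342 and 292 at D15 and fell by 2.5 ± 0.34 (adjusted p = 2.51e-05). Vim, the filament protein of mesenchyme, fell by 0.39 ± 0.06. Dcn had 67.8, 73 and 102 CPM at D8, 349, 373 and 509 at D10 and 1996, 2348 and 2335 at D15. Mgp, an inhibitor of calcification, had 0.436, 0.498 and 0.539 CPM at D8, 22.7, 13.5 and 9.67 at D10 and 427, 443 and 418 at D15. Ltbp2, of elastic microfibrils, had 0.436, 0.83 and 1.62 CPM at D8, 7.83, 6.56 and 11.8 at D10 and 477, 369 and 407 at D15. Both are among the 12 largest rises. Has2, which makes the hyaluronan of the early cardiac jelly, had 165, 149 and 153 CPM at D8, 31.5, 45.9 and 42.5 at D10 and 0.53, 0 and 0.80 at D15 and was among the 12 largest falls. The summed list rose from between 30039 and 40872 CPM to between 65791 and 77316.

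Basement membrane genes mostly rose. Of 17 tested, 13 rose, 2 fell and 2 passed no test (median 0.89). Col4a1, a collagen of the sheet, had 349, 349 and 346 CPM at D8 and 4017, 3739 and 3324 at D15 and rose by 3.41 ± 0.10. Col4a2, its partner, had 242, 240.5 and 236 CPM at D8 and 2891, 2763 and 2526 at D15 and rose by 3.51 ± 0.08. Lama1, the laminin chain of the early embryo, had 199.99, 241 and 284 CPM at D8, 123, 133 and 203 at D10 and 6.18, 8.33 and 12.3 at D15 and fell by 4.74 ± 0.27 (adjusted p = 3.16e-09). Col18a1 had 1446, 1491 and 1777 CPM at D8, 1432, 1406 and 1549.5 at D10 and 372, 321 and 283 at D15. D8 and D10 overlapped, every D15 library was lower, and Col18a1 fell by 2.27 ± 0.09.

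Most epicardium genes rose, and the keratin genes Krt8 and Krt18 among them fell. Of 17 tested, 11 rose, 4 fell and 2 passed no test (median 1.05). Msln, of mesothelium, had 1 count at D8 and 4068 at D15 (D15 to D8 ratio 4282, 95% interval 768 to 169162), the largest fitted rise among genes that qualified for that ranking. Wt1, the epicardial factor, had 133, 126 and 118 CPM at D8, 239, 239 and 249 at D10 and 239, 263 and 279 at D15 and rose by 1.05 ± 0.07 (adjusted p = 6.12e-14), and its D10 libraries were near those of D15. Lrrn4 rose by 2.38 ± 0.08. Krt8, a keratin of simple epithelium, had 247, 276 and 285 CPM at D8 and 17.5, 19.5 and 21.4 at D15 and fell by 3.79 ± 0.10. Krt18, its partner, had 129, 149.5 and 177 CPM at D8 and 19.2, 19.5 and 20.6 at D15 and fell by 2.93 ± 0.13. Cdh3, a cadherin of epithelia, had 476, 441 and 464 CPM at D8, 572, 601 and 695 at D10 and 62.3, 59.7 and 78.9 at D15, highest at D10 and lowest at D15. Podxl, a surface sialomucin, fell by 1.25 ± 0.13. C3, of the complement system, was among the 12 largest rises, with 0.29, 1.16 and 0.18 CPM at D8, 8.9, 6.04 and 9.09 at D10 and 401, 382 and 459 at D15.

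Endothelium genes rose at low levels. Of 21 tested, 15 rose, 1 fell and 5 passed no test (median 2.17); Etv2 had no count on either day. Pecam1, an adhesion protein of vessel walls, had 7.12, 9.79 and 9.34 CPM at D8, 17.8, 11.1 and 8.7 at D10 and 99, 77.5 and 43.2 at D15 and rose by 3.07 ± 0.31 (adjusted p = 4.06e-07). Flt1, a VEGF receptor, had 3.92, 2.16 and 3.23 CPM at D8, 7.68, 3.97 and 3.48 at D10 and 46.8, 32.4 and 27 at D15, and Esm1, of sprouting vessel tips, had 1 count at D8 and 414 at D15 (D15 to D8 ratio 436, 95% interval 77.8 to 17253). At D15 these 3 genes and the list's sum were highest in MR34, the library with the highest sarcomere sum. Tek, an angiopoietin receptor, had 261, 245 and 318 CPM at D8, 138, 145 and 182 at D10 and 75.2, 89 and 103 at D15 and fell by 1.62 ± 0.16 (adjusted p = 8.61e-07). Smooth muscle genes went both ways. Of 16 tested, 7 rose, 5 fell and 4 passed no test (median 0.30), beside 32.9% higher and 31.5% lower over all genes. Mylk, the myosin light chain kinase, had 9.73, 5.97 and 5.39 CPM at D8, 63.1, 62.8 and 56.3 at D10 and 475, 452 and 515 at D15 and rose by 6.07 ± 0.13, whereas Acta2, smooth muscle actin, fell by 0.67 ± 0.14 and Notch3, of pericytes, by 1.63 ± 0.10.

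Fewer markers of cell types outside the heart passed the filter than failed it, in each of 5 lists. Of 20 blood and immune genes 5 passed the filter; 2 rose, 1 fell and 2 passed no test. Defining immune genes Ptprc, Emr1 (Adgre1) and Sfpi1 (Spi1) had 0 counts on D8, D10 and D15, and the embryonic globin gene Hbb-bh1 had 56 counts at D8 and 0 at D15. Csf1r, the receptor of macrophage growth factor, had 6.39, 7.14 and 11.1 CPM at D8 and 14.1, 16.1 and 16.5 at D15 and rose by 0.94 ± 0.24. Of 9 endoderm and yolk sac genes 4 rose, 1 fell and 4 passed no test. Trf, of the iron carrier transferrin (40.6% unique stretches), had 2.76, 2.49 and 2.51 CPM at D8, 7.83, 8.98 and 6.0 at D10 and 379, 296 and 262 at D15. Apoe, a lipid carrier, had 71.7, 70.5 and 67.2 CPM at D8, 86, 89.8 and 73.9 at D10 and 360.2, 434 and 449 at D15. Krt7, a keratin also made by mesothelium, had 18.9, 15.1 and 13.1 CPM at D8, 134, 136 and 145 at D10 and 246, 266 and 259 at D15. Each was highest in the D15 libraries. The liver factor genes Foxa2 and Hnf4a had at most 4 counts on a day, and Alb, the gene of albumin, had 1 count at D8 and 167 at D15. Of 8 skeletal muscle genes 7 rose, 1 fell and 0 passed no test. Myh8, a perinatal myosin, had 0 counts at D8 and 1703 at D15, so it was higher by a factor of at least 597, while Myod1 and Myf5, which set skeletal muscle fate, had 0 counts on the 3 days. Of 9 neural and crest genes 4 rose, 4 fell and 1 passed no test; Ncam1, an adhesion gene also found in heart muscle, had 96.7, 96.1 and 126 CPM at D8, 452, 399 and 378 at D10 and 360.1, 330.4 and 319.9 at D15, highest at D10. Of 7 pluripotency and early mesoderm genes 2 rose, 1 fell and 4 passed no test; Klf2 and Klf4, which endothelium also uses, rose by 4.0 ± 0.41 and 1.38 ± 0.20.

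A list of genes tied to Hedgehog signalling, the subject of the series, went both ways. Of 16 tested, 4 rose, 6 fell and 6 passed no test (median -0.14), not far from the 32.9% higher and 31.5% lower over all genes. The 6 that fell were Hhip, Gli2, Sufu, Disp1, Kif7 and the forkhead gene Foxf1a. The list also holds forkhead genes, Osr1 and Wnt2b, which are not parts of the pathway itself. Osr1 and Wnt2b are among the 4 that rose, beside Boc and Gas1, and Wnt2b is also counted with the Wnt genes. Ptch1, the receptor and target gene (chromosome 13, 63508328 to 63573598), had 17.1, 13.4 and 11.5 CPM at D8, 17.3, 14.7 and 8.32 at D10 and 18.7, 11.5 and 7.84 at D15; the days overlapped and the difference did not pass (-0.17 ± 0.30, adjusted p = 0.648). Gli1, the readout that the pathway switches on, had 3 counts at D8 and 2 at D15, below the filter. Hhip, an antagonist that the pathway induces, had 16 counts at D8 and 0 at D15, so it was lower by a factor of at least 5.07 (adjusted p = 0.000278). Boc, a co-receptor gene, had 22.7, 21.6 and 26.4 CPM at D8, 45, 43.3 and 34 at D10 and 96.5, 107 and 117 at D15 and rose by 2.18 ± 0.12, and Gas1 rose by 2.17 ± 0.13. Osr1, a zinc finger gene of lateral mesoderm, had 0.871, 0.664 and 0.898 CPM at D8, 3.99, 5.01 and 7.16 at D10 and 117, 143 and 128 at D15. Gas1 and Osr1 are also genes of mesenchyme. The fibroblast and matrix sum rose over the same days, and its part in the rises of Gas1 and Osr1 was not tested.

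Wnt ligand and antagonist genes went both ways. Of 27 tested, 12 rose, 8 fell and 7 passed no test (median 0.50), beside 32.9% higher and 31.5% lower over all genes. Wnt5a, a ligand of the noncanonical branch, had 65.5, 77.7 and 76 CPM at D8, 77.8, 70.6 and 69 at D10 and 495, 577 and 522 at D15, overlapping at D8 and D10 and higher in every D15 library, a rise of 2.87 ± 0.09. Wnt2b rose by 3.3 ± 0.17 and Wnt5b by 2.59 ± 0.20, whereas Wnt2 had 88.3, 74.8 and 50.6 CPM at D8 and 9.18, 12.2 and 8.0 at D15 and fell by 2.88 ± 0.29. Among secreted antagonists, Sfrp2 had 7.55, 8.13 and 8.98 CPM at D8, 86.9, 85.1 and 77.7 at D10 and 193, 290.1 and 280.2 at D15. Sfrp5 had 182, 136 and 106 CPM at D8, 23.9, 21.9 and 15.7 at D10 and 3.18, 2.66 and 4.16 at D15, the opposite direction. Sfrp1 fell by 1.34 ± 0.16 after a higher level at D10 (1.24 ± 0.13 above the midpoint). Dkk1 fell by 3.59 ± 0.42. Genes of the canonical branch also differed in direction. Tcf7, one of its transcription factors, fell by 1.72 ± 0.16, whereas Lef1, a related factor, rose by 1.77 ± 0.25. Axin2 and Nkd1, feedback inhibitors that the branch induces, rose by 0.99 ± 0.19 and 0.86 ± 0.12. Sp5, another of its targets, had 6 counts at D8 and 22 at D15, and its rise of 1.94 ± 0.79 was called (adjusted p = 0.0333) except with the fold threshold and without MR28, MR30 or MR36.

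BMP and TGF-beta genes moved in both directions. Of 25 tested, 13 rose, 9 fell and 3 passed no test (median 0.29). Tgfb2, the ligand of the early heart cushions, had 527, 557 and 480.02 CPM at D8, 289, 279 and 285 at D10 and 112, 96.1 and 88 at D15 and fell by 2.4 ± 0.08 (adjusted p = 9.17e-20). The receptor gene Tgfbr2 rose by 2.0 ± 0.09 and Ltbp3, which holds latent TGF-beta, had 14.2, 18.1 and 16 CPM at D8, 49.7, 49.4 and 45.8 at D10 and 213, 219 and 231 at D15. Tgfbi, a target of the pathway, had 299.9, 286 and 278 CPM at D8, 279, 285 and 358 at D10 and 81.5, 56 and 74.1 at D15, lower in every D15 library than on the other days. Of the ligand genes, Bmp2 fell by 2.19 ± 0.20, Bmp5 fell by 3.04 ± 0.23 and Bmp7 fell by 1.86 ± 0.15, whereas Bmp6 rose by 1.74 ± 0.16 and Tgfb3 by 1.15 ± 0.16. Tgfb1 rose by 0.30 ± 0.13 (adjusted p = 0.047), a call lost under 13 of 17 other settings, among them without any one of MR28, MR29 and MR31 to MR36. Bmp4 did not pass (0.28 ± 0.13, adjusted p = 0.062), but it was called under 6 of 17 other settings, among them DESeq2 and limma-voom. Nog, an antagonist gene, fell by 2.1 ± 0.39.

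Notch, FGF and antigen presentation genes mostly rose. Of 14 Notch genes 8 rose, 3 fell and 3 passed no test (median 0.79). Heyl, a target, had 0.726, 0.664 and 0.718 CPM at D8, 16.1, 15.4 and 9.67 at D10 and 15, 14.4 and 7.2 at D15, with D10 and D15 overlapping, while Hey1, another target, had 44.2, 36.3 and 25.5 CPM at D8, 51.4, 46.1 and 38.7 at D10 and 8.3, 5.32 and 7.84 at D15. Notch4, of endothelium, rose by 3.7 ± 0.41 and Jag1, a ligand, fell by 1.32 ± 0.18. Of 21 FGF and immediate early genes 14 rose, 2 fell and 5 passed no test (median 1.7). Spry4, a feedback inhibitor of FGF signalling, had 0.871, 1.66 and 2.15 CPM at D8, 11.2, 7.25 and 10.4 at D10 and 42, 39.3 and 49.1 at D15 and rose by 4.84 ± 0.27; Spred1 and the target Etv5 rose by 1.32 ± 0.09 and 3.37 ± 0.24. The ligand gene Fgf10, of the second heart field, had 103, 89 and 89.3 CPM at D8, 39.8, 39.9 and 37.5 at D10 and 10.4, 5.67 and 4.8 at D15 and fell by 3.76 ± 0.19, and the receptor gene Fgfr3 fell by 5.16 ± 0.20. Of 15 genes of antigen presentation and interferon response 12 rose, 1 fell and 2 passed no test (median 1.77). H2-K1, a class I molecule, had 6.39, 5.97 and 5.75 CPM at D8, 23, 21.9 and 20.3 at D10 and 104, 95.2 and 85 at D15, and B2m, its light chain, rose by 1.13 ± 0.08. Tapbp, which loads peptide, rose by 2.14 ± 0.13 and Ifitm3, an antiviral membrane protein, by 2.55 ± 0.16, while Ifitm1 fell by 2.18 ± 0.26.

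The largest fitted rises joined muscle genes with mesothelial, matrix and complement genes. By the ranking described with the methods, the 12 genes included Msln, Ckm, Myoz2, Mgp, C3, Igfbp6, Casq2, Ltbp2, Esm1, Slc17a7 and Gpr133. Of the 12, 7 had 1 or 2 counts over the D8 libraries, so their order is loose. Gpr133, an adhesion receptor, had 0.145, 0.83 and 0.539 CPM at D8, 1.23, 0.691 and 0.967 at D10 and 187, 182 and 192 at D15; D8 and D10 overlapped, and the rise came after D10. A further 12 genes had at least 20 CPM at D15 and no count at D8. Among them, Xdh, which makes uric acid, had 2506 counts at D15 (at least 879-fold higher), Fam110c 3712 (at least 1302-fold) and Lrat, which stores retinol as esters, 984 (at least 345-fold). These names were chosen after their values were seen.

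The largest falls were Hsd3b6, Sall4, Has2, Lin28a, Igdcc3, Cnr1, Prtg, Igsf11, Trim71, Grid1, Nnat and Sfrp5, a set with several genes known from early embryos. Sall4, a factor of stem and progenitor cells, had 396 counts at D8 and 1 at D15 (D8 to D15 ratio 376, 95% interval 67.1 to 14897). Prtg, a surface receptor of the early embryo, had 79.9, 101 and 98.1 CPM at D8, 18.1, 19.7 and 16.8 at D10 and 1.06, 0.709 and 1.28 at D15. Igdcc3, a related receptor, had 109.9, 109 and 116 CPM at D8, 15.8, 15.4 and 20.1 at D10 and 0, 0.886 and 0.80 at D15. For both, libraries of the 3 days did not overlap, and D10 was above the log2 midpoint, by 0.90 ± 0.16 and 1.09 ± 0.26. Hsd3b6, a steroid enzyme, had 45.3, 29 and 21.5 CPM at D8, 24.3, 23.3 and 18 at D10 and 0, 0 and 0.16 at D15, with D8 and D10 overlapping. Cnr1, a cannabinoid receptor, had 393 counts at D8 and 2 at D15 (D8 to D15 ratio 187, 95% interval 51.3 to 1547). Nlrp4a had 472 counts at D8 and none at D15, a fall by a factor of at least 149.

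Most of the change between D8 and D15 came after D10, over a gap of 5 days against 2 before it. Among the 3220 genes called with at least 2-fold change, the median share of the log2 change present at D10 was 38.3% (quartiles 19.9% and 57.6%). From D8 to D10 4093 genes (31.2%) were called and from D10 to D15 6662 (50.8%). The mean at D10 lay between those of D8 and D15 for 6800 of the 8446 genes called over the span (80.5%). D10 was off the log2 midpoint in 2865 of all genes (21.8%). Of the 8446 genes, 525 (6.22%) were off it and nearer D15 and 1756 (20.8%) off it and nearer D8. Among genes that rose these were 398 (9.23%) and 851 (19.7%), and among those that fell 127 (3.07%) and 905 (21.9%).

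Genes far from the midpoint showed the extremes of timing. Enpp2, which makes the lipid signal LPA, had 1.74, 1.66 and 0.718 CPM at D8, 0.768, 0.691 and 0.967 at D10 and 179, 198 and 192 at D15, with D8 and D10 overlapping. Scn3b, a sodium channel subunit, had 0.581, 0.332 and 0.359 CPM at D8, 0.461, 0.863 and 0.387 at D10 and 82.4, 76 and 68.6 at D15. Kcnj15, a potassium channel, had 0.436, 0.166 and 0.359 CPM at D8, 0, 0.345 and 0.193 at D10 and 23.5, 22.9 and 14.7 at D15. In these 3 the rise came after D10 in every library. Hic1, a tumour suppressor of mesenchyme, had 0, 0.332 and 0 CPM at D8, 18, 12.9 and 9.48 at D10 and 23.5, 24.5 and 25.3 at D15, with every D10 library above D8 and below D15. Col25a1, a membrane collagen, had 9.0, 5.64 and 6.82 CPM at D8, 40.5, 35.7 and 34.6 at D10 and 4.24, 3.37 and 3.04 at D15. Zcchc12 had 9.15, 7.47 and 9.34 CPM at D8, 22.1, 25.9 and 24.6 at D10 and 0.53, 0.532 and 1.6 at D15. Tmem200a had 8.71, 11.1 and 11.9 CPM at D8, 19.3, 27.8 and 33.8 at D10 and 0.177, 0.886 and 3.36 at D15. These 3 peaked at D10 and were lower at D15 than at D8. Of called genes off the midpoint, 87.7% of those that fell and 68.1% of those that rose were nearer D8 at D10. Beside these shares, 14 of 14 replication genes, all fallen, and 9 of 9 lysosome genes, all risen, were nearer D8.

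**Figure D5:**
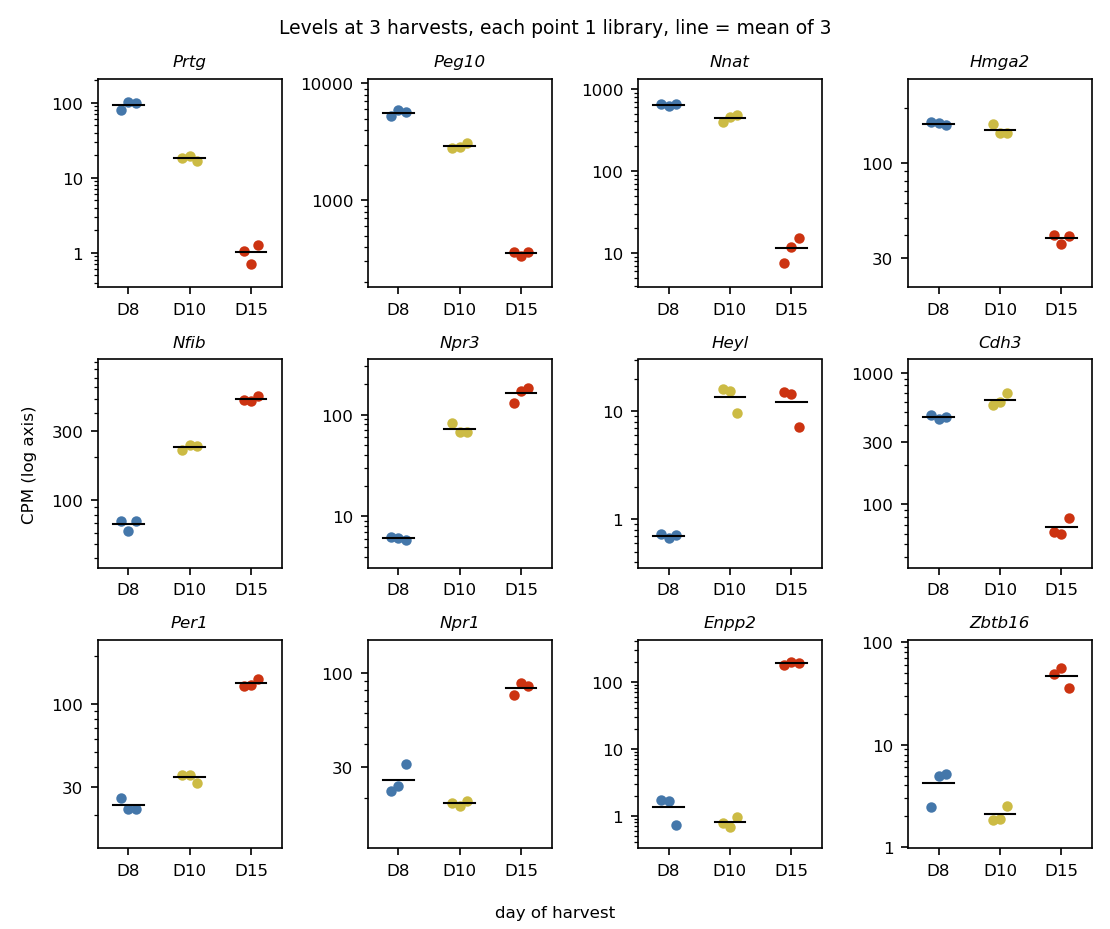
CPM (log axes, each panel on its own scale) of 12 genes at D8, D10 and D15; points are libraries in the order of their running numbers and lines are means of 3. Npr3 and Heyl had most of their log2 difference by D10, whereas Hmga2, Per1, Npr1, Enpp2 and Zbtb16 have most of their difference after D10, and Cdh3 is highest at D10.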

How the data were processed

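Counts per gene, one column per library, were deposited by the authors as a table of whole numbers; per the labels' protocols the libraries were made with the TruSeq RNA v2 kit and read as single ends of 50 bases, which they call stranded although that kit is known as one that does not mark strand, and per the submitters' processing notes STAR and mm10 were used. The counting program, its annotation and its use of strand are not given in the sources used here. Of 21 columns of counts 18 were used, and 3 were not analysed here.

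Genes passed edgeR's filterByExpr with a minimum count of 10. TMM factors scaled the libraries, and one mean per day was fitted to all 18 libraries (12 residual degrees of freedom, biological coefficient of variation 8.27%) with edgeR 4.0.16 in R 4.3.3. D15 was tested against D8, and D10 against the midpoint of their log2 levels. CPM values use TMM-scaled totals. A gene without a count on a day has a bound against a floor of 3 counts summed over the day's libraries, and one with 1 to 3 counts a ratio with an exact 95% binomial interval. Alternatives were DESeq2 1.42.0, limma 3.58.1 (voom), other scaling and filters, D8, D10 and D15 or D8 and D15 fitted alone, a fold threshold of 1.5 tested with edgeR, and each library left out. On simulated counts for the D15 against D8 comparison, 199 of 12804 genes were changed. Recovery was 53% for genes changed 1.5-fold, 79.1% at 2-fold and 93.9% at 4-fold, and 7.41% of calls were false. The simulation changed a far smaller share of genes than the 64.4% called in the data. Its rates therefore need not hold for this comparison.

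Members and gene lists were chosen with earlier results of these data known. Named genes were a hand-chosen group, the 12 largest rises and falls (called, at least 20 CPM in the higher day, at least 1 count in the lower, libraries without overlap, no predicted model), up to 4 members of each list with the smallest p, members called against their list, and the 5 genes farthest above and below the midpoint at D10. Isoform pairs, motifs, printed windows, the genes drawn in figures, and Ace, Alb, Aldoa, Ankrd37, Axin2, Bmp4, Bmp6, Bnip3, Cdk1, Cdkn1a, Cdkn2a, Cdkn2b, Cdkn2c, Cdkn2d, Ddit4, Ect2, Fabp4, Hk2, Lef1, Myh8, Nkd1, Pgk1, Prc1, Sp5, Tgfb1, Tgfb3 and Top2a were chosen after their values were seen. No 2 libraries of a day agreed within sampling noise. Some genes that the rule names are not reported here.

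Without strand in the counting, reads of overlapping genes cannot be told apart. Exons of another gene overlap those of Acadvl, Ace, Ankrd37, Atf5, Atp2a2, Atp5a1, Axin2, Bin1, Bmp4, Bmp5, Bmp6, Bnip3, Car9, Ccnd2, Cdk4, Cdkn1a, Cdkn1c, Celf2, Chrm2, Ckm, Col4a1, Col4a2, Cox4i1, Cox6a2, Cox6c, Cpt1b, Cryab, Csf1r, Ctsa, Ctsb, Ctsl, Enpp2, Ezh2, Fdft1, Fgf10, Fgfr3, Gabarapl1, Gas1, Gja5, Gli1, Gpi1, Grid1, H19, H1f0, Hand2, Has2, Hhip, Hif1a, Hmga2, Igf2, Igf2bp1, Igf2bp3, Igfbp7, Kcnd3, Kcnj15, Kcnj3, Kcnk3, Kif4, Krt7, Krt8, Lef1, Lin28a, Ltbp2, Ltbp3, Mb, Mbnl2, Mef2a, Mef2d, Meis1, Mthfd1, Myh6, Myh7, Myl2, Mylk, Ncam1, Ncl, Nfia, Nfic, Nnat, Notch3, Nppa, Npr1, Npr3, Nr2f1, Nr2f2, Nr3c2, Pappa2, Pdha1, Pln, Prc1, Rbl2, Rpl4, Sall4, Sfrp2, Shmt2, Slc2a1, Smarca2, Smarca4, Tapbp, Tbx3, Tgfb2, Tgfb3, Tmem200a, Tnni3, Top2a, Trf, Trim71, Ube2c, Ucp2 and Wnt5a. Under 80% of 50-base stretches are unique in Acadvl, Bmp5, Bnip3, Cdkn1c, Cpt1b, Ctsl, Etv5, Fdft1, Gabarapl1, Igf2, Kcnj3, Krt8, Mb, Myh6, Npm1, Nppa, Pgk1, Pln, Tapbp and Trf. The symbols C3, Cnr1, Gpi1, H19, H2-K1, Hcn4, Igf2bp1, Kif2c, Ltbp2, Npm1, Osr1, Sp5 and Trf are also older symbols of other genes.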

Additional observations from a re-analysis of the deposited data

How the results depend on the processing

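Under other scaling, filters, tools and fits the number of genes called between D8 and D15 ran from 7849 to 8751, and no gene called in both fits changed sign. A test against a fold of 1.5 called 3655 genes in place of 8446, with 2387 higher in place of 4310, 1268 lower in place of 4136, and 349 in place of 2865 for D10 off the midpoint. Leaving out each library of the 3 days gave 7967 to 8606 genes called, 4122 to 4410 higher and 3845 to 4196 lower, 3203 to 3357 with at least 2-fold change, and 2034 to 2842 off the midpoint. The share of called genes that were higher was 51%, 45.9% with upper quartile factors, which moved the median log2 fold change by -0.07, and 65.3% against a fold of 1.5. Among named genes, Tgfb1 lost its call under 13 settings, Tet2 under 12, E2f1 under 8, Ednra and Khdrbs3 under 7 and Psph and Cdkn1a under 6. No paired analysis was possible because the columns carry a running number and no replicate number. Sarcomere sums fell with the running number on each of the 3 days. Whether libraries at the same position on different days belong together is not known and was not tested. The fit used here counts such an order as spread between libraries. Depth limits genes with few counts on a day. Bounds or ratios with intervals are given only for some genes with at most 3 counts on a day.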
